A study of Homo sapiens with 12 samples.

Results

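A set of 10 genes of Wnt signalling was followed through 12 libraries of EndoC-βH1 cells, an insulin-producing human beta cell line. They were the ligands WNT4 and WNT5B, the Frizzled receptors FZD3 and FZD6, the co-receptors LRP5 and LRP6, the receptor tyrosine kinases ROR1, ROR2 and RYK, and the secreted protein DKK3. The members were taken by the Entrez Gene ID of each symbol, and all 10 were among the 21508 identifiers listed in any library. All 10 also passed the filter on low counts that left 15990 genes for testing.

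All cells were transfected by lipid reagent, with a commercial negative control siRNA or with pre-designed siRNAs against TUNAR, a gene annotated as a long noncoding RNA. After 2 days they received the GSK3 inhibitor 1-AKP at 5 µM, or DMSO at a dilution of 1 in 1000, for 24 hours. The 4 groups were negative siRNA in DMSO, TUNAR siRNAs in DMSO, negative siRNA in 1-AKP and TUNAR siRNAs in 1-AKP, with 3 libraries in each. Replicates 1 and 2 were at passage 74 and replicate 3 at passage 75. The cells are 1 established line, so the spread between libraries is that within this line. Replicate 3 differed from the others in passage, and the labels do not say whether replicates 1 and 2 were separate cultures. The p-values measure the spread between these libraries, part of which may be technical.

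Wnt ligands are lipid-modified secreted proteins that bind Frizzled receptors. With LRP5 or LRP6 as co-receptor, the signal holds back the complex that contains GSK3 and marks beta-catenin for degradation, so a GSK3 inhibitor acts below the receptors. ROR1, ROR2 and RYK bind Wnt ligands in branches that do not need beta-catenin, and planar polarity is the best known of these. DKK3 belongs to the Dickkopf family of secreted proteins, whose relative DKK1 blocks the LRP co-receptors.

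The promoters of ROR1 and WNT4 are shown because these genes had the largest called changes with 1-AKP, and that of ROR2 because it is the close relative of ROR1 and did not pass the same test. Sequences are the 250 bases before each gene start in RefSeq on GRCh38.p14, written 5′ to 3′ on the gene's strand. Positions count back from the gene start, with -1 the last base before it.
ROR1, chr1:63773767-63774016, plus strand: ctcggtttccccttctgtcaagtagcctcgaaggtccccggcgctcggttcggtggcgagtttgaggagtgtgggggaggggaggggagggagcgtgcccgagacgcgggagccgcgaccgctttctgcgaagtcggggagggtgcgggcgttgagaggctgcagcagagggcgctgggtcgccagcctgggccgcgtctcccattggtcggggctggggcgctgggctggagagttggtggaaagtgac
WNT4, chr1:22143098-22143347, minus strand: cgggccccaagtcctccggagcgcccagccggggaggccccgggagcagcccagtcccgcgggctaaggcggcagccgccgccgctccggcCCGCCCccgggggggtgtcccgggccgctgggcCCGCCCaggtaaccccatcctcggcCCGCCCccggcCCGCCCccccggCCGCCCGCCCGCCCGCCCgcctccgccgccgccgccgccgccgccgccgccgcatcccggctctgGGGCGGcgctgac
ROR2, chr9:91950229-91950478, minus strand: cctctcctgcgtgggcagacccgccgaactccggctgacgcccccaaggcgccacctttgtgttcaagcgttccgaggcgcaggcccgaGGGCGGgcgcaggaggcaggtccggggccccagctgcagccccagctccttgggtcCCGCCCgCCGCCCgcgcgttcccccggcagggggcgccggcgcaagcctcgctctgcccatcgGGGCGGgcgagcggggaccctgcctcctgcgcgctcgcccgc
Capitals mark the GC box GGGCGG, searched on both strands with overlapping matches counted. WNT4 held 9 matches, of which the 4 that start at -78, -74, -70 and -66 overlap, ROR2 held 4, and ROR1 held 0. This word occurs in 42.6% of the 35116 RefSeq promoters of that length. The word CTTTGAA and its 3 variants that end in AT, TA or TT after the shared CTTTG are core letters bound by the TCF and LEF partners of beta-catenin. They had 0 matches on either strand in these 3 windows and were in 11.96% of all promoters. G and C made up 69.2% of the ROR1 window, 86.8% of that of WNT4 and 78.0% of that of ROR2, against a median of 58.0% over all promoters. Promoters of RYK, LRP5 and WNT5B were searched too, so that 6 of the 10 genes had a window. They also had 0 matches to the TCF and LEF words. The TATA box word TATAAA, in 10.7% of all promoters, was found once, in 1 of the 2 WNT5B windows.

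Library totals ran from 15653786 to 15986834 expected counts, and the members held between 138.0 counts (WNT5B, lowest library) and 1787 counts (LRP5, highest library). The 9 beta cell markers summed to 21265 to 29648 FPKM per library and the 8 fibroblast and stellate markers to 0.53 to 1.37 FPKM. Markers of other islet cells summed to 1188 to 1760 FPKM, those of duct and acinar cells to 49.8 to 66.0 FPKM and those of endothelial and blood cells to 23.2 to 38.3 FPKM. TUNAR, the siRNA target, stood at 17.3 ± 2.76 CPM (counts scaled to library size; SD, n = 3) with negative siRNA in DMSO and, after TUNAR siRNAs, at 6.37 ± 2.24 CPM. In 1-AKP the values were 29.9 ± 1.69 and 10.3 ± 3.32 CPM (SD, n = 3). Averaged over treatments TUNAR differed by -1.49 log2 units between the siRNAs (SE 0.18, edgeR adjusted p = 0.0101), and the call ended in passage 74 alone (adjusted p = 0.154). Within a single treatment the same fit did not call TUNAR, in DMSO (adjusted p = 0.248) or in 1-AKP (adjusted p = 0.159). TUNAR was also higher with 1-AKP, by 0.74 (SE 0.18, adjusted p = 0.0143).
The libraries numbered 1 stood apart from those numbered 2 and 3. Against these, replicate 1 differed by a mean of 2.63 log2 units for the delta cell hormone SST and of -2.28 for the beta cell gene G6PC2, with COL1A1 (0.73) and the macrophage gene CD68 (0.60) also higher in all 4 groups. Some markers of the same lists went the other way in all 4 groups. These were IAPP of the beta cell markers (0.48), IRX2 of the other islet cell markers (-0.32) and PECAM1 of the endothelial and blood markers (-0.27). The 12 G2/M genes summed to 930 to 962 FPKM in the highest library of each group, and to 589 to 606 FPKM in the lowest, and each of these genes was highest in replicate 1 of all 4 groups. Among the members, DKK3 and FZD6 were highest and RYK lowest in replicate 1 of all 4 groups. Replicate 1 lay above the mean of the other libraries of its group by 0.42 log2 units on average for DKK3 and by 0.44 for FZD6, and below it by a mean of -0.27 for RYK. A shift of at least 0.3 in size was found for 17% of all tested genes. In bulk RNA, fewer cells of a kind and less RNA per cell cannot be told apart.

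LRP5 and ROR2 were the most abundant members per length, and ROR1 the least. FPKM, which scales fragments by gene length and library total, allows genes to be compared. With negative siRNA in DMSO, LRP5 stood at 21.4 ± 0.31 FPKM and ROR2 at 21.1 ± 1.70 FPKM (SD, n = 3), and their ranges overlapped. RYK followed at 9.42 ± 0.71 FPKM and DKK3 at 8.72 ± 1.94 FPKM. LRP6 (7.04 ± 0.31), FZD3 (6.91 ± 0.18), WNT4 (6.67 ± 0.17), WNT5B (6.25 ± 0.72), FZD6 (5.17 ± 1.21) and ROR1 (4.27 ± 0.49) closed the order, each with SD and n = 3.
Of the 9 pairs of neighbours in this order, only ROR2 and RYK did not overlap over the 3 libraries. ROR1 was last in all 4 groups, and LRP5 first. DKK3 ranked the fourth with negative siRNA and above RYK with TUNAR siRNAs, in both treatments.

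**Figure D1:**
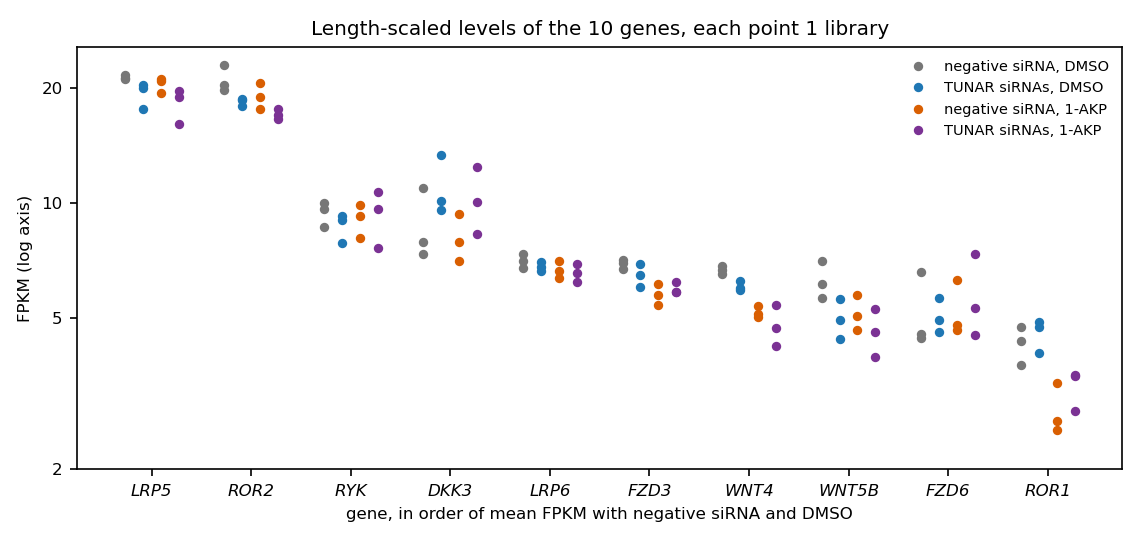
FPKM of the 10 genes on a log axis, in the order of their means with negative siRNA and DMSO; each point is 1 library and colours give the 4 groups. LRP5 and ROR2 lie above the other 8 genes in every group, and ROR1 is lowest in the 1-AKP groups.

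The relatives differed in level by unequal factors. The ratio of LRP5 to LRP6 FPKM ran from 2.33 to 3.18 over the 12 libraries, lowest in replicate 1 of TUNAR siRNAs in 1-AKP. FZD3 to FZD6 ran from 0.847 to 1.57, and its lowest value in each group was that of replicate 1. ROR2 to ROR1 was 6.13, 4.19 and 4.70 with negative siRNA in DMSO and 7.71, 7.47 and 5.25 with negative siRNA in 1-AKP (replicates 1, 2 and 3). With TUNAR siRNAs it was 4.64, 3.68 and 3.94 in DMSO and 5.03, 5.99 and 4.71 in 1-AKP. The 1-AKP library had the higher ratio for each replicate number. The RSEM gene length of ROR1, weighted over 2 deposited transcripts, ran from 4879 to 5586 bases between libraries, so its FPKM carries a change of length as well as of counts.

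Of the 19 Wnt ligands, 6 passed the filter. Their FPKM with negative siRNA in DMSO were 6.71 ± 1.41 for WNT5A, then the WNT4 and WNT5B values above, then 2.60 for WNT3, 2.34 for WNT9A and 0.80 for WNT7B. WNT4 and WNT5B were thus 2 of the 3 ligands above 5 FPKM, and WNT5A overlapped both. Of the 10 Frizzled receptors 8 passed, and FZD3 and FZD6 were below FZD1 (18.9 FPKM) and FZD5 (10.3 FPKM) and above the others (at most 1.41 FPKM, FZD7). Of the 14 secreted antagonists, 4 passed, and DKK3 was below SFRP1 (13.8 FPKM) and above NOTUM (1.48 FPKM) and SOSTDC1 (0.29 FPKM).

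With 1-AKP, the receptor kinase ROR1, the ligand WNT4 and the receptor FZD3 fell, averaged over both siRNA conditions. ROR1 fell to 69.0% of its DMSO level, WNT4 to 79.3% and FZD3 to 88.8%. No member rose. The comparison asks what inhibition of GSK3 does to the transcripts of the pathway that GSK3 serves. The 3 calls among 10 members stand beside 19.2% of all tested genes called in this comparison in either direction and 9.25% called lower, and the count is not read as a property of the members. The median log2 change was -0.09 over the members and -0.0027 over all tested genes, and 8 of the 10 members lay below 0.

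ROR1, a receptor for WNT5A, fell the most. With negative siRNA it stood at 20.5, 25.6 and 24.3 CPM in DMSO and at 14.7, 14.2 and 18.3 CPM in 1-AKP (replicates 1, 2 and 3; CPM are after TMM scaling). With TUNAR siRNAs it stood at 22.2, 26.4 and 25.4 CPM in DMSO and at 17.37, 16.03 and 19.16 CPM in 1-AKP. All 6 libraries with 1-AKP lay below all 6 with DMSO, a separation that 10.5% of all tested genes had.
The log2 change of ROR1 was -0.54 (SE 0.08, 95% interval -0.72 to -0.35, edgeR quasi-likelihood test, adjusted p = 0.000803). It was lower in 6 of 6 pairs of the same siRNA and replicate number. Such pairs are given only as a description with 1-AKP, where the deviations of replicate 2 were correlated by just 0.0871 and 0.0634. The change was -0.60 within passage 74 and -0.40 within passage 75.
With negative siRNA alone it was -0.58 (SE 0.12, adjusted p = 0.0126), a call that ended without replicate 2 of the negative siRNA libraries in DMSO (adjusted p = 0.0607) or in 1-AKP (adjusted p = 0.0639). With TUNAR siRNAs alone it was -0.49 (SE 0.12, adjusted p = 0.0245). That call ended without replicate 2 or 3 of the TUNAR siRNA libraries in DMSO (adjusted p = 0.101 and 0.0732) and without their replicate 2 in 1-AKP (adjusted p = 0.0933). In limma on log2(FPKM + 0.1) and log2(FPKM + 1) it missed the threshold too (adjusted p = 0.0718 and 0.067). The averaged call held whichever library was left out, with adjusted p up to 0.00335, and in passage 74 alone (adjusted p = 0.0167).

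WNT4, a ligand that mostly signals outside the beta-catenin branch, fell less. With negative siRNA it stood at 25.8, 26.7 and 25.4 CPM in DMSO and at 20.2, 21.2 and 19.8 CPM in 1-AKP. With TUNAR siRNAs it stood at 23.3, 24.4 and 23.3 CPM in DMSO and at 16.7, 21.3 and 18.5 CPM in 1-AKP. The 6 libraries with 1-AKP again lay below the 6 with DMSO. WNT4 and ROR1 were the 2 members of 10 with no overlap, beside 10.5% of all tested genes. The count is not read as a property of the members.
The averaged log2 change was -0.34 (SE 0.06, 95% interval -0.46 to -0.21, edgeR adjusted p = 0.00178), lower in 6 of 6 pairs. It was -0.34 within passage 74 and -0.34 within passage 75. The averaged call held whichever library was left out, with adjusted p up to 0.00673, and ended in passage 74 alone (adjusted p = 0.0707).
Within 1 siRNA condition the changes were -0.35 with negative siRNA (SE 0.08, adjusted p = 0.0264) and -0.33 with TUNAR siRNAs (SE 0.08, adjusted p = 0.0356). Leaving out any 1 of the 6 negative siRNA libraries ended the former call (adjusted p from 0.0614 to 0.102). The latter ended without any 1 of 8 libraries, namely replicate 2 of negative siRNA in DMSO, replicates 2 and 3 of negative siRNA in 1-AKP, all 3 of TUNAR siRNAs in DMSO, and replicates 1 and 3 of TUNAR siRNAs in 1-AKP, with adjusted p from 0.0505 to 0.127. It also ended with only the 2 groups compared (adjusted p = 0.126) and without the 4 libraries numbered 1 (adjusted p = 0.0551).

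FZD3, a Frizzled receptor known for its part in planar polarity and axon growth, had the smallest called change. With negative siRNA it stood at 92.3, 96.4 and 97.7 CPM in DMSO and at 75.5, 86.3 and 80.6 CPM in 1-AKP. With TUNAR siRNAs it stood at 83.2, 96.0 and 90.4 CPM in DMSO and at 87.1, 82.3 and 82.0 CPM in 1-AKP. The groups did not overlap with negative siRNA, as for 25.9% of all tested genes, and overlapped with TUNAR siRNAs because replicate 1 was the lowest DMSO library and the highest 1-AKP library.
Averaged, the log2 change was -0.17 (SE 0.04, 95% interval -0.27 to -0.07, edgeR adjusted p = 0.0174), lower in 5 of 6 pairs. It was -0.15 within passage 74, where the call ended (adjusted p = 0.235), and -0.21 within passage 75. With negative siRNA it was -0.24 (SE 0.06, adjusted p = 0.0385), a call that ended without any 1 of 7 libraries: all 3 of negative siRNA in DMSO, replicates 1 and 3 of negative siRNA in 1-AKP, and replicate 3 of either TUNAR siRNA group (adjusted p from 0.0512 to 0.115). It also ended in limma on log2(FPKM + 0.1) and log2(FPKM + 1) (adjusted p = 0.0545 and 0.0537) and with only the 2 groups compared (adjusted p = 0.0627). With TUNAR siRNAs it was -0.10 (SE 0.06, adjusted p = 0.401), which did not pass. Without the 4 libraries numbered 1, a subset chosen after seeing the data, it was -0.18 there and passed (adjusted p = 0.0186).

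**Figure D2:**
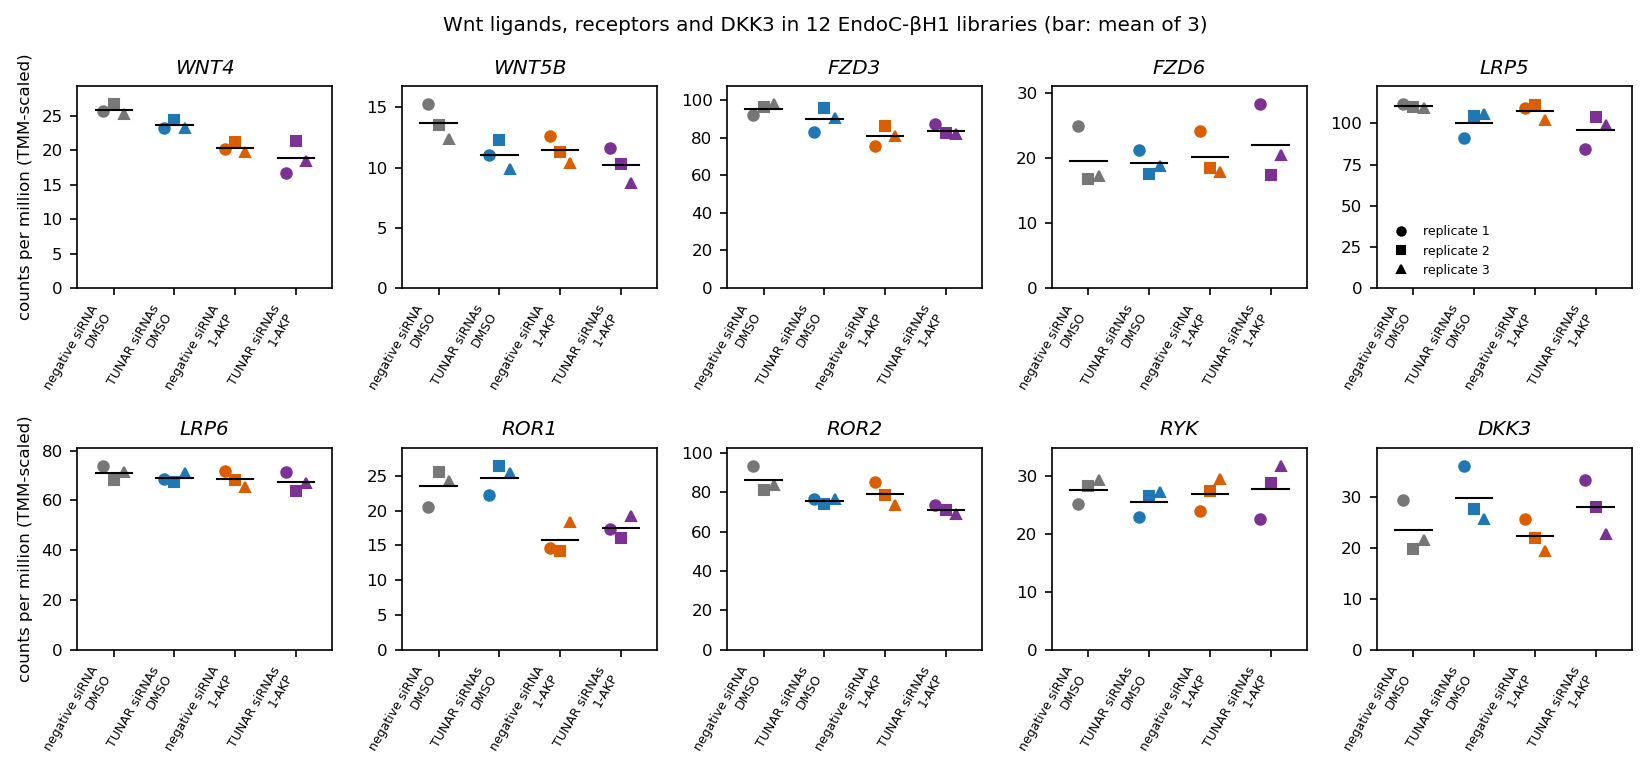
CPM (TMM-scaled) of the 10 genes in each of 12 libraries; columns are the 4 groups, symbols the replicate numbers and bars the means of 3. ROR1 and WNT4 are lower in the 6 libraries with 1-AKP than in the 6 with DMSO, and DKK3 and FZD6 are highest in replicate 1 of each group.

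The 2 comparisons within a siRNA condition called 3 of 10 members with negative siRNA, beside 7.3% of all tested genes (3.76% lower), and 2 of 10 with TUNAR siRNAs, beside 7.51% (3.79% lower). They share no libraries. ROR1, WNT4 and FZD3 were called in the former and ROR1 and WNT4 in the latter. The test of the difference between them, the interaction, called 0 of 10 members and 0% of all tested genes. In edgeR the unadjusted interaction p lay under 0.05 for 170 of 15990 genes, and none of the alternatives that could be fitted called a gene in it. For ROR1 the difference was 0.08 (95% interval -0.28 to 0.44), for WNT4 0.02 (-0.24 to 0.28) and for FZD3 0.14 (-0.05 to 0.33), so differences of up to 0.28 to 0.44 log2 units lie within the intervals.

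The other 7 members did not pass in the averaged 1-AKP comparison. ROR2 changed by -0.10 (95% interval -0.21 to -0.0048, edgeR adjusted p = 0.139) and was lower in 6 of 6 pairs. WNT5B changed by -0.19 (-0.38 to 0.01, adjusted p = 0.189) and was lower in 5 of 6 pairs. The co-receptors LRP5 (-0.05, interval -0.17 to 0.06, adjusted p = 0.556) and LRP6 (-0.04, interval -0.13 to 0.04, adjusted p = 0.503) had intervals that hold 0, with drops past 0.17 log2 units outside both. RYK (0.04, interval -0.15 to 0.23), FZD6 (0.12, interval -0.19 to 0.43) and DKK3 (-0.08, interval -0.38 to 0.21) were bounded less closely, and in these 3 members replicate 1 was the extreme library of all 4 groups. Over the 12 libraries FZD6 ran from 16.7 to 28.2 CPM, LRP6 from 63.9 to 73.9 CPM and RYK from 22.6 to 31.7 CPM, and the treatments overlapped for each. ROR2 was called without the 4 libraries numbered 1 (-0.11, adjusted p = 0.0369), a subset chosen after seeing the data. That made 4 members called.

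**Figure D3:**
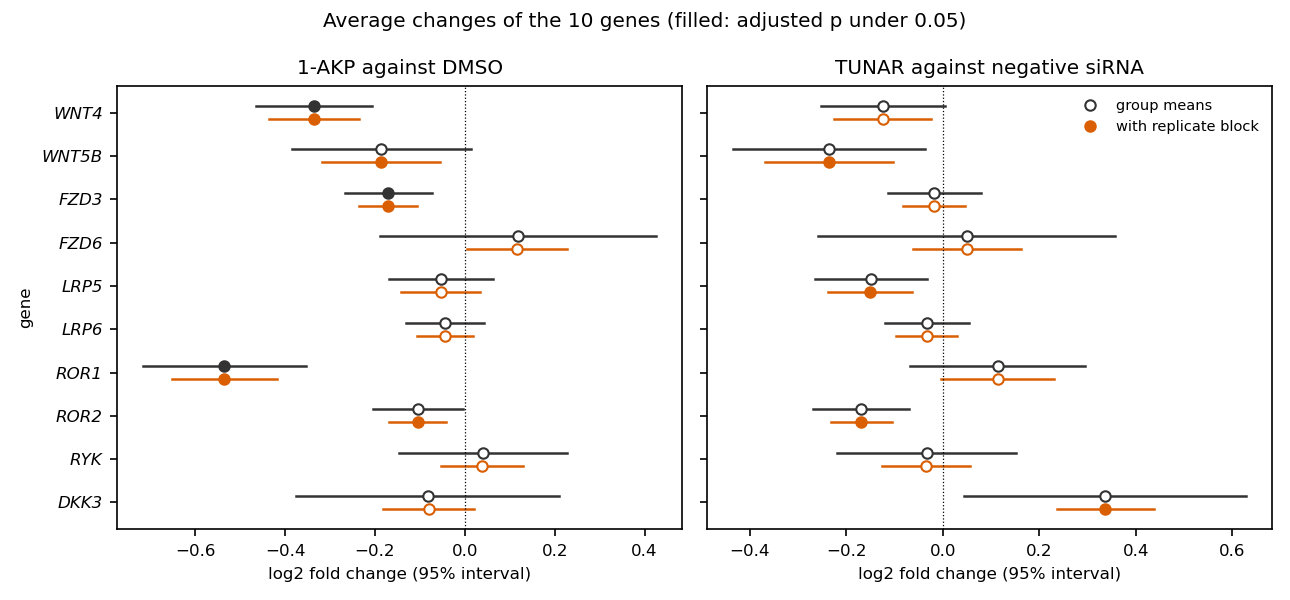
Log2 fold changes of the 10 genes with 95% intervals, for 1-AKP against DMSO (left) and TUNAR against negative siRNA (right), averaged over the other factor; dark points are the fit on group means, orange points the fit blocked on replicate number, and filled points have adjusted p under 0.05. ROR1, WNT4 and FZD3 are filled in both fits on the left, ROR2 and WNT5B only in the block fit, and no gene is filled in the fit on group means on the right.

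With TUNAR siRNAs, none of the 10 members passed the fit on group means, and DKK3 rose while ROR2, WNT5B and LRP5 fell in the fit that takes replicate number as a block. These comparisons ask what follows knockdown of TUNAR. Same-numbered libraries deviated together in the siRNA comparisons, so both fits are given. The block also joins libraries across treatments, where the deviations of replicate 2 were correlated by just 0.0871 and 0.0634. With a separate block in each treatment, the averaged change of LRP5 did not pass (edgeR adjusted p = 0.0831). On group means edgeR called 0 members in DMSO, in 1-AKP and averaged, beside 0.0125%, 0% and 0.175% of all tested genes. TUNAR itself was called there only in the averaged comparison. For the 1-AKP libraries, in which no gene passed in edgeR, the unadjusted p lay under 0.05 for 743 of 15990 genes, which are not read as changes. With the block the counts were 3 members in DMSO (3.05% of all tested genes), 2 in 1-AKP (2.77%) and 4 averaged (8.59%). The averaged median over the members with the block was -0.03, against -0.0022 over all tested genes.

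DKK3 was higher with TUNAR siRNAs in every pair of the same treatment and replicate number. In DMSO the negative siRNA libraries held 29.4, 19.7 and 21.5 CPM, and those with TUNAR siRNAs 36.1, 27.6 and 25.7 CPM (replicates 1, 2 and 3). In 1-AKP the negative siRNA libraries held 25.6, 21.9 and 19.3 CPM, and those with TUNAR siRNAs 33.3, 28.1 and 22.8 CPM. The groups overlapped in both treatments, because replicate 1 with negative siRNA lay above replicates 2 and 3, or replicate 3, with TUNAR siRNAs.
The averaged log2 change was 0.34 in both fits. On group means it did not pass (SE 0.13, edgeR adjusted p = 0.469), and with the replicate block it did (SE 0.05, adjusted p = 1.03e-05). Without the 4 libraries numbered 1, a subset chosen after seeing the data, it passed on group means (0.34, adjusted p = 0.0141). It was 0.38 within passage 74 and 0.25 within passage 75. With the block and without any 1 replicate number the averaged call held (adjusted p up to 0.00198). The block call in DMSO (0.34, adjusted p = 0.00248) ended without replicate 2 (adjusted p = 0.0942), and that in 1-AKP (0.33, adjusted p = 0.00499) without replicate 1 (adjusted p = 0.053) or 2 (adjusted p = 0.0605). Beside it, KREMEN1 and KREMEN2, cell-surface receptors of Dickkopf proteins, had changes of -0.04 and -0.13 on group means, and neither passed in either siRNA fit.

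ROR2, a WNT5A receptor of planar polarity, was lower with TUNAR siRNAs in 6 of 6 pairs. In DMSO the negative siRNA libraries held 93.4, 81.0 and 83.5 CPM, against 76.5, 73.9 and 76.7 CPM after TUNAR siRNAs. In 1-AKP the former held 85.2, 78.9 and 73.5 CPM and the latter 73.4, 70.9 and 68.9 CPM. The groups did not overlap in either treatment, though they nearly met in 1-AKP, and the gap was widest in replicate 1. Of all tested genes, 10.5% did not overlap in DMSO and 8.97% in 1-AKP.
The averaged log2 change was -0.17 (SE 0.05, edgeR adjusted p = 0.194) on group means and -0.17 with the block (SE 0.03, adjusted p = 0.00024). The averaged block call held without any 1 replicate number (adjusted p up to 0.0225). The block calls in DMSO (-0.18, adjusted p = 0.0111) and in 1-AKP (-0.16, adjusted p = 0.0465) ended without replicate 1 (adjusted p = 0.217 and 0.268) or 2 (adjusted p = 0.0789 and 0.25), and that in 1-AKP also without replicate 3 (adjusted p = 0.101). Its relative ROR1 changed by 0.11 (95% interval -0.07 to 0.29, adjusted p = 0.814) and was higher in 6 of 6 pairs. ROR1 did not pass in either fit.

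WNT5B, a ligand of the same branch, was also lower with TUNAR siRNAs in 6 of 6 pairs. Its DMSO libraries held 15.2, 13.5 and 12.3 CPM after negative siRNA, against 11, 12.3 and 9.84 CPM after TUNAR siRNAs. In 1-AKP the values were 12.6, 11.3 and 10.4 CPM and 11.6, 10.3 and 8.76 CPM. The DMSO groups did not overlap and the 1-AKP groups did.
The averaged change was -0.24 (SE 0.09, edgeR adjusted p = 0.449) on group means and -0.24 with the block (SE 0.07, adjusted p = 0.0167). Without replicate 1 or 3 the averaged block call ended (adjusted p = 0.143 and 0.155), and the block call in DMSO (-0.31, adjusted p = 0.0483) ended without any 1 number (adjusted p from 0.1 to 0.406) and with a separate block in each treatment (adjusted p = 0.0522).

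LRP5, the co-receptor, fell with the block only when averaged. Its DMSO libraries held 111.6, 110.2 and 109.3 CPM after negative siRNA, against 91.3, 104.6 and 105.8 CPM after TUNAR siRNAs, with no overlap. In 1-AKP the same groups held 109.4, 111.0 and 102.1 CPM and 84.6, 103.8 and 99.4 CPM, and the groups overlapped. Replicate 1 was the lowest library in both TUNAR siRNA groups.
The averaged change was -0.15 (SE 0.05, edgeR adjusted p = 0.386) on group means and -0.15 with the block (SE 0.04, adjusted p = 0.0336). With a separate block in each treatment it did not pass (-0.15, adjusted p = 0.0831). The block call ended without replicate 1 (-0.06, adjusted p = 0.275) or 2 (adjusted p = 0.0856). Within passage 74 the change was -0.21 and within passage 75 it was -0.04.

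**Figure D4:**
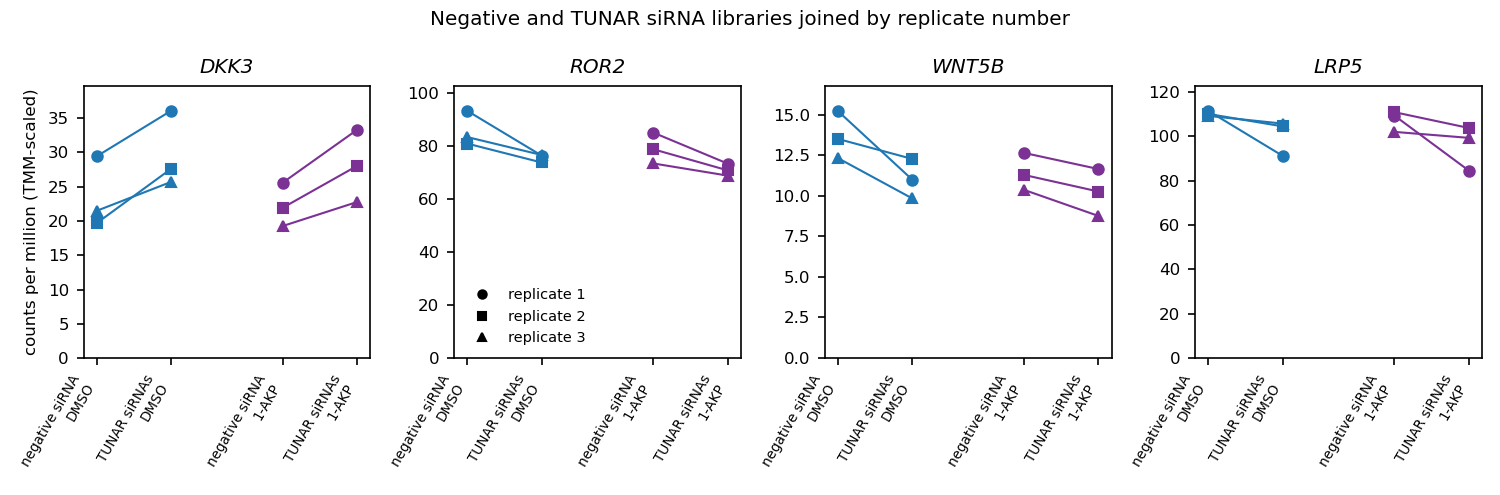
CPM (TMM-scaled) of DKK3, ROR2, WNT5B and LRP5 with negative and TUNAR siRNAs, in DMSO (blue) and 1-AKP (purple); lines join libraries of the same replicate number. DKK3 rises and the other 3 genes fall along all 6 lines, and the LRP5 line of replicate 1 drops the most.

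The other 5 members had averaged siRNA changes between -0.12 (WNT4) and 0.05 (FZD6) beside ROR1 at 0.11, and none passed in either averaged fit. WNT4 was lower with TUNAR siRNAs in 5 of 6 pairs and did not overlap in DMSO, where 10.5% of all tested genes did not overlap either. FZD3 (-0.02, 95% interval -0.11 to 0.08) and LRP6 (-0.03, interval -0.12 to 0.05) were the most closely bounded of these. RYK and FZD6 had intervals of -0.22 to 0.15 and -0.26 to 0.36. Beta cell genes also moved with the siRNA in the averaged block fit: PDX1 (-0.14), NKX6-1 (-0.20) and IAPP (-0.35) were lower, and SLC30A8 (0.22) and INS (0.07) higher. Of the markers of other cell types, KRT19 (0.18) was higher and TTR (-0.08) and CD68 (-0.46) lower. Of the 12 G2/M genes, MKI67 (0.14), TOP2A (0.09) and CENPF (0.08) were called higher in it. The part of these in the members' changes was not tested.

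Beyond the members, 41 other Wnt pathway genes passed the filter, of 76 in the lists used. With 1-AKP, averaged over siRNAs, 9 of them fell and 1 rose, beside 19.2% of all tested genes called (9.25% lower), and their median log2 change was -0.12. With negative siRNA 2 fell, PTK7 and KREMEN1, beside 3.76% of all tested genes called lower. With TUNAR siRNAs PTK7, KREMEN1 and WLS fell, beside 3.79% called lower. With the siRNAs 0 of the 41 were called on group means, and with the block BCL9 (0.16, edgeR adjusted p = 0.00024) and PTK7 (0.11, adjusted p = 0.00285) were higher when averaged. In that averaged block fit 8.59% of all tested genes were called.
PTK7, a receptor-like protein of planar polarity, stood at 171.4 ± 2.24 CPM with negative siRNA in DMSO and at 140.4 ± 0.636 CPM in 1-AKP (SD, n = 3). Its averaged change was -0.29 (SE 0.03, edgeR adjusted p = 7.16e-05). KREMEN1, which binds Dickkopf proteins, stood at 36.4 ± 0.643 CPM and 25.6 ± 1.33 CPM and changed by -0.41 (SE 0.05, adjusted p = 0.000288). The 6 libraries with 1-AKP did not overlap the 6 with DMSO for either gene, nor for WLS, FZD7 and VANGL2 among the called genes below. Of all tested genes, 10.5% had such a separation. These genes are named because the same comparison called them, so the separation is not further evidence.
WLS, which carries Wnt ligands to the cell surface, fell by 0.14 on the log2 scale (adjusted p = 0.00705). The receptor FZD7 changed by -0.37 (adjusted p = 0.00929), the planar polarity cadherin CELSR3 by -0.16 (adjusted p = 0.0161), and beta-catenin itself, CTNNB1, by -0.20 (adjusted p = 0.017). BCL9, a nuclear partner of beta-catenin, changed by -0.17 (adjusted p = 0.0148), and TCF7L2, its DNA-binding partner, by -0.48 (adjusted p = 0.0445). VANGL2, a planar polarity protein, changed by -0.88 (adjusted p = 0.0222) from a level of only 0.791 ± 0.144 CPM with negative siRNA in DMSO (SD, n = 3). FZD5 was the gene that rose, by 0.20 (adjusted p = 0.0442).
The calls of PTK7, KREMEN1, WLS, FZD7, CELSR3 and BCL9 held whichever library was left out. CTNNB1 lost its call without replicate 3 of TUNAR siRNAs in 1-AKP (adjusted p = 0.0506). VANGL2 lost it without replicate 2 or 3 of negative siRNA in DMSO, replicate 2 of TUNAR siRNAs in DMSO or replicate 3 of TUNAR siRNAs in 1-AKP (adjusted p from 0.0516 to 0.06). FZD5 lost it without replicates 2 or 3 of either DMSO group or replicates 1 or 2 of either 1-AKP group (adjusted p from 0.0627 to 0.109). TCF7L2 lost it without replicates 1 or 3 of negative siRNA in either treatment, replicates 1 or 2 of TUNAR siRNAs in DMSO, or replicates 2 or 3 of TUNAR siRNAs in 1-AKP (adjusted p from 0.0546 to 0.107). FZD5 also lost its call with no scaling beyond library size (adjusted p = 0.0717) and in limma at both pseudocounts (adjusted p = 0.0978 and 0.0986). TCF7L2 lost it without the filter on low counts (adjusted p = 0.0503), in limma on log2(FPKM + 0.1) (adjusted p = 0.052) and without the libraries numbered 1 (adjusted p = 0.08). VANGL2 lost it in limma on log2(FPKM + 1), where its change was -0.0865 (adjusted p = 0.0777). In passage 74 alone PTK7 and KREMEN1 kept their calls and the other 8 did not.

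**Figure D5:**
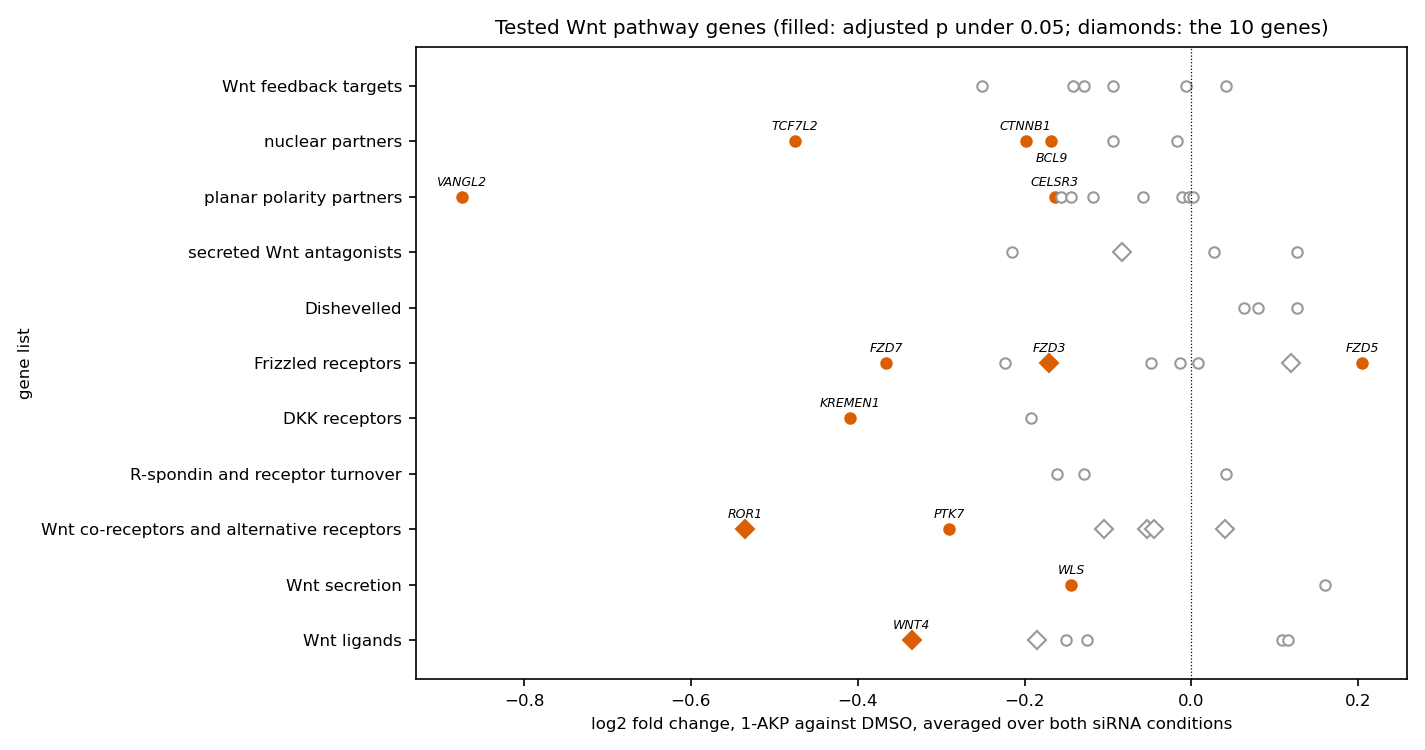
Log2 fold change with 1-AKP, averaged over siRNAs, of every tested Wnt pathway gene, by list; diamonds are the 10 genes followed here and filled points have adjusted p under 0.05. Among the co-receptor and alternative receptor list, ROR1 and PTK7 are the filled points, and no feedback target is filled.

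The 6 tested feedback targets of beta-catenin signalling, AXIN2, NKD1, SP5, RNF43, ZNRF3 and TCF7, included 0 calls with 1-AKP, averaged over siRNAs, beside the 19.2% of all tested genes called. Their log2 changes ran from -0.25 (SP5) to 0.04 (ZNRF3), with edgeR adjusted p from 0.111 to 0.981. AXIN2, the textbook target of the pathway and named here after its value was seen, changed by -0.14 (95% interval -0.34 to 0.06, adjusted p = 0.336), so a rise past 0.06 log2 units at 24 hours lies outside its interval. Beta cell markers moved beside the members in the same comparison. IAPP fell, with a log2 change of -0.80, as did NKX6-1 (-0.50) and PDX1 (-0.12), and G6PC2 rose (2.32), while none of the 12 G2/M genes was called. The part of these changes in those of the members was not tested.

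The gene most like each member over the 12 libraries was found among 10947 other genes by Pearson's r of log2 CPM, given as a description, since the libraries share groups and replicate numbers. WNT4 was most like CACNA2D2 (r = 0.965), ROR1 most like UBALD1 (r = 0.962) and WNT5B most like STN1 (r = 0.962). ROR2 was most like RDH10 (r = 0.957), DKK3 most like ZFAND3 (r = 0.954), FZD6 most like DDIAS (r = 0.953) and RYK most like CDK2AP2 (r = 0.967). FZD3 was most like ARMCX2 (r = 0.936), LRP6 most like PHC3 (r = 0.918) and LRP5 most like CEBPA (r = 0.913). Between members, the highest r was that of ROR2 and WNT5B (0.842), and the lowest that of RYK and DKK3 (-0.778), which moved in opposite directions in replicate 1. ROR1 and its relative ROR2 had r = 0.0742.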

How the data were processed

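The 12 libraries were polyadenylated RNA primed with random hexamers, with no strand marking stated in the labels, so reads of overlapping antisense genes cannot be told apart. Per the file headers, the authors deposited for each gene its expected count, which carries no normalisation, its FPKM and its length. RSEM, Bowtie, BWA, GRCh37 and hg19 appear in the submitters' processing notes, with neither versions nor roles. Where a library does not list a gene, its value was set to 0. As no annotation of that build was used here, no gene coordinates are given beyond those of the RefSeq promoters.

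Expected counts were rounded, filtered (filterByExpr, minimum count 10, minimum total 15), scaled by TMM and fitted with 4 group means in edgeR 4.0.16 under R 4.3.3 (glmQLFit, robust). Contrasts were tested with the quasi-likelihood test and Benjamini-Hochberg adjustment over all 15990 genes, threshold 0.05. The averaged comparisons are the mean of the 2 contrasts. CPM are rounded counts scaled to TMM-adjusted library totals, and intervals are 95%. The script was tested on simulated data. The text names all members, every pathway gene called in a comparison on group means, and the most alike gene of each member. The members and lists were chosen with earlier results of these data known. The result of 1 marker gene is not reported here.

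Deviations of same-numbered libraries from their group means had correlations over genes of 0.376, 0.178 and 0.217 (siRNA comparison in DMSO), and of 0.416, 0.162 and 0.286 (siRNA comparison in 1-AKP), all over 0.1, so the replicate block is given beside them. It assumes that a replicate's shift is the same in both treatments. The labels tie a number only to a passage. Alternatives were other scalings, DESeq2 1.42.0, no filter, limma 3.58.1 on log2(FPKM + 0.1) or log2(FPKM + 1), subsets of libraries, passage as a covariate and replicate blocks.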

Additional observations from a re-analysis of the deposited data

How the results depend on the processing

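For the averaged 1-AKP comparison, 3 members were called on leaving out any 1 library. The count was 5 with the replicate block, 5 with the block within siRNA condition and 1 in passage 74 alone. With the replicate block 1 feedback target, RNF43, was called lower (-0.13). That block fit called 39.7% of all tested genes in either direction, so neither count is read as a property of these genes. In the 1-AKP comparisons the same-numbered correlations were 0.427, 0.0871 and 0.223 with negative siRNA and 0.407, 0.0634 and 0.159 with TUNAR siRNAs. Those of replicate 2 lay under 0.1, so with 1-AKP the block is only an alternative and counts of pairs are description.

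With negative siRNA the count of 3 became 5 with either block, where the replicate block called 26.8% of all tested genes. It became 2 in limma at either pseudocount, 2 with only the 2 groups, 0 in passage 74 alone and 0 to 3 on leaving out 1 library. With TUNAR siRNAs the count of 2 became 1 with limma at either pseudocount, 1 with only the 2 groups, 0 in passage 74 alone and 0 to 2 on leaving out 1 library. With the siRNAs the count of 0 became 3 in DMSO, 2 in 1-AKP and 4 averaged with the replicate block, and 2, 2 and 3 with the block within treatment, where WNT5B in DMSO and LRP5 averaged did not pass. It was 1 averaged without the libraries numbered 1, an alternative chosen after seeing the data. On leaving out 1 replicate number the block counts ran from 0 to 2 in DMSO, 0 to 1 in 1-AKP and 2 to 3 averaged.

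Small values changed sign on leaving out 1 library: FZD3 (-0.0392 to 0.0105), FZD6 (-0.0569 to 0.1561) and RYK (-0.0859 to 0.0321) with the siRNAs, and RYK (-0.0137 to 0.1027) and DKK3 (-0.1541 to 0.0155) with 1-AKP. RYK with 1-AKP was -0.0025 in passage 74. Over the other alternatives the genes called ran from 850 to 6482 for averaged 1-AKP, 51 to 4486 with negative siRNA, 67 to 4497 with TUNAR siRNAs, 2 to 1420 for averaged siRNA, 0 to 492 in DMSO and 0 to 481 in 1-AKP. The causes were not tested. WNT5B, with 138.0 to 244.0 counts per library, was the least deeply counted member.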
